A study of Mus musculus with 27 samples.

Results

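The nuclear pore and transport receptor genes described here were all genes whose symbol was Nup with a number, one of the importins and exportins (Kpna, Kpnb1, Ipo, Tnpo, Xpo), or a gene of the Ran cycle (Ran, Ranbp1, Ranbp2, Rangap1, Rcc1, Nutf2). This rule took 48 of the 25209 genes, namely 19 pore genes and 29 receptor and Ran cycle genes, and used no measured value. RNA-seq had been performed on V6.5 cells, a mouse embryonic stem cell line, as wild type (WT) and as 2 Zfp512b knockout clones, KO4 and KO8. Each clone is a single line in which a transcriptional terminator had been placed inside both copies of Zfp512b, which encodes a zinc finger protein, together with mCherry or a puromycin resistance gene, which WT cells lack. Cells were collected at day 0 in medium with LIF and 2 kinase inhibitors (naive), at day 2 after priming in medium with serum and LIF (primed), at day 7.5 after priming and embryoid body culture toward cardiomyocytes with vitamin C (CM), and at day 10 after priming and embryoid body culture toward neural progenitors with retinoic acid (NPC), with all days counted from the naive state. The naive groups had 3 libraries each and the groups of the other stages 2 each, 27 libraries in all, and nothing in the labels says whether the libraries of a group came from separate cultures, so that p-values measure only the spread between these libraries.

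The nuclear pore is a ring of proteins that spans the nuclear envelope and is the passage for nearly all exchange between nucleus and cytoplasm. Importins and exportins carry cargo through its mesh of phenylalanine-glycine repeats, and the small GTPase Ran gives the transport its direction, since its exchange factor Rcc1 sits on chromatin and its activating protein Rangap1 sits on the cytoplasmic side. Many of these proteins have another task in dividing cells, where Ran, importin beta and parts of the pore scaffold take part in building the spindle and rebuilding the nuclear envelope.

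The values at hand were base means, which are means of normalized counts over the WT libraries and the libraries of 1 clone at 1 stage. Each stage therefore had 2 tables, one with KO4 and one with KO8, that share their WT libraries. Levels are given in CPM, base means scaled to the sum of their table, in the order KO4 table, KO8 table, and each is a mean over WT and that clone. Libraries held about 15.1 to 39.7 M counted reads, with the naive libraries deepest (34.2 to 39.7 M) and the others between 15.1 and 19.5 M. Zfp512b itself stood at 929 and 977 normalized reads in the 2 primed WT libraries against 154 to 219 in the 4 primed knockout libraries, and at 1060 and 1118 against 155 to 209 at the CM stage, which matched the labels. Marker genes followed the stages in part. The summed level of 6 naive markers was 4330 and 4370 CPM in the naive tables and 95.0 and 141 in the NPC tables, that of 6 cardiomyocyte markers was 1672 and 2432 in the CM tables and at most 9.14 elsewhere, and 5 genes of other embryoid body cells such as Afp and Col1a1 stood at 716 and 1634 CPM at the CM stage. The 6 neural markers summed to 879 and 984 CPM in the NPC tables, above the naive (199 and 200) and primed tables (171 and 171). They did not set the NPC stage apart from the CM stage, where they summed to 929 and 486. Mean levels of Nes, Sox11, Tubb3 and Map2 were higher at the NPC stage, those of Pax6 and Sox1 at the CM stage. Pax6 stood at 17.5 and 17.2 CPM in the NPC but 79.3 and 4.20 in the CM tables. Map2 stood at 56.2 and 75.4 CPM in the NPC but 11.4 and 4.05 in the CM tables. The 4 primed markers summed to 1257 and 1337 CPM in the primed and 601 and 377 in the CM tables, but were split. Fgf5 and Otx2 were higher at the CM than at the primed stage, with means of 40.7 against 2.15 CPM and 107 against 53.4. Dnmt3b and Pou3f1 were lower at the CM stage, with means of 314 against 1149 CPM and 28.2 against 91.7. In such bulk samples fewer cells of a type and less RNA per cell cannot be told apart.

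The promoters of 3 members are shown because they hold the sequence motifs counted among these genes. All 3 genes were lower at the NPC stage than at the primed stage, but so were 39 of the 47 members compared. They are the 250 bases before the annotated start in RefSeq on GRCm38.p6, read 5′ to 3′ on the strand of the gene, with motif matches on either strand in capitals.
Kpnb1, chr11:97187893-97188142, minus strand: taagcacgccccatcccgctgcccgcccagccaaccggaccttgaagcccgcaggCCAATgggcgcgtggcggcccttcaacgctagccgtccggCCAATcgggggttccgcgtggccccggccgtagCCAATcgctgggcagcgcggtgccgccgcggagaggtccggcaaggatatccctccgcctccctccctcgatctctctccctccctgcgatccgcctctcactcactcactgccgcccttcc
Ran, chr5:129019906-129020155, plus strand: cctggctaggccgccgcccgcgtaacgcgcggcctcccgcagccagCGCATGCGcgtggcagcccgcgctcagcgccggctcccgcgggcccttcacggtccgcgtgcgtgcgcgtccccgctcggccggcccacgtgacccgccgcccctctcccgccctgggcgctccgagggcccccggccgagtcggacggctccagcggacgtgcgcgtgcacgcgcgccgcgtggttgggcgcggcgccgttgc
Nup107, chr10:117792706-117792955, minus strand: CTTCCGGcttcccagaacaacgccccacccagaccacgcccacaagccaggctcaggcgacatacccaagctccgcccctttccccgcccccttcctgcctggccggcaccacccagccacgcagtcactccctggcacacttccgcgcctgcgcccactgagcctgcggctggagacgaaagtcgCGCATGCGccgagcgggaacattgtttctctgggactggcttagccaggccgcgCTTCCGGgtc

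The motifs were searched on both strands in 300 bases around each start, and 40 of the 48 members had 48 promoters in the table. The CCAAT box, bound by NF-Y, stood in 23 of these 48 promoters (47.9%) against 37.4% of all 32851 promoters. The ETS core CCGGAAG stood in 7 (14.6%) against 8.86% of all promoters. GCATGCG, the core of the NRF1 motif, stood in 7 (14.6%), those of Nup107, Nup50, Nup62, Ran, Ranbp1, Rcc1 and Xpo5, against 3.58% of all promoters. In Ran and Nup107 it matches on both strands in overlap, so that CGCATGCG is in capitals. The 2 ETS matches in Nup107 lie on the opposite strand as CTTCCGG, and the Kpnb1 promoter holds 3 CCAAT boxes. A match describes the letters of a window and says nothing of whether a factor binds there. Ipo9, which was higher at the NPC than at the primed stage, also holds a CCAAT box. A relation of the motifs to the levels was not tested.

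Levels between stages were compared in CPM. A gene was called between 2 stages when both tables of one stage lay at least 1.5-fold above both tables of the other, and the mean of its 2 base means was at least 100 in either stage. A base mean has no replicate values, so these calls carry no p-value, and stages were normalized separately by the authors. Kpna7, an importin alpha known from oocytes and early embryos, was at or close to 0 in all 8 tables (0 to 0.084 CPM) and failed the minimum, so 47 members entered.

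Measured per kilobase of exon, Ran was the most abundant member, with 342 CPM per kilobase at the naive, 436 at the primed, 185 at the NPC and 249 at the CM stage. It was followed by Ipo5, the importin of ribosomal proteins and histones, with 247, 273, 101 and 156. Kpnb1, the importin beta that pairs with the Kpna adaptors, had 221, 262, 115 and 165, Ranbp1, a Ran cofactor of the cytoplasm, had 192, 254, 110 and 167, and Ipo7 had 205, 212, 102 and 121. The order of Ipo5, Kpnb1 and Ranbp1 changed from stage to stage, while Ran led at all 4 stages. A length was available for 47 members, Ipo11 being the exception, since the annotation lists it under more than 1 locus.

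The pore and transport genes as a group were at their highest in primed cells and at their lowest in NPC cultures. The 19 pore genes summed to 4335 and 4268 CPM in the naive tables, 4483 and 4474 in the primed tables, 2231 and 2282 in the NPC tables, and 2916 and 2498 in the CM tables. The 29 receptor and Ran cycle genes summed to 10914 and 10713, 12192 and 12197, 6246 and 6382, and 8689 and 7218 in the same order of stages. The 2 tables of a stage were close to each other except at the CM stage, where the KO4 table was higher for both groups.

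**Figure D1:**
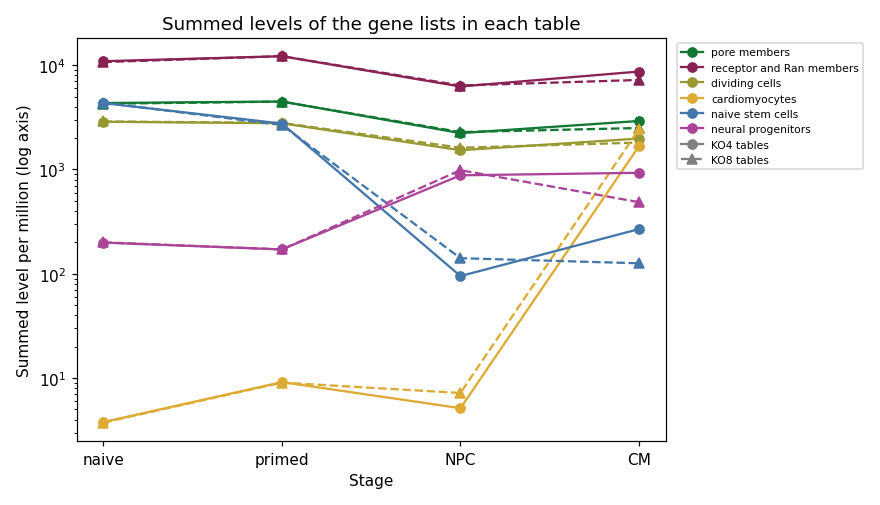
Summed levels of the gene lists, CPM of the base means on a log axis, at the 4 stages; circles and solid lines are the KO4 tables, triangles and dashed lines the KO8 tables. Pore genes summed to 4483 and 4474 CPM in primed and to 2231 and 2282 in NPC tables, and the 8 genes of dividing cells to 2773 and 2796 and to 1530 and 1616.

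From naive to primed, 3 of 47 members were called, 1 higher (10.3% of all 11069 genes entered were called higher) and 2 lower (18.0% of all genes). Nup210, a membrane glycoprotein of the pore whose level is known to differ between cell types, stood at 269 and 282 CPM in naive and at 93.3 and 105 in primed tables. Its primed level was thus 0.359 of the naive level, the largest ratio in either direction among the members at this step. Tnpo1, the transportin that imports hnRNP A1, went from 540 and 546 to 349 and 356 CPM, a ratio of 0.649. Ipo13, an importin that also exports cargo, went from 45.8 and 42.2 to 69.4 and 69.8 CPM, 1.58-fold higher. Tnpo1 and Ipo13 were close to the limit of 1.5-fold, the call for Tnpo1 was lost when the tables were scaled by median ratios or by a sum without the highest 1% of genes, and Tnpo3, the importin of SR splicing proteins, stayed just under it with 255 and 248 in naive against 379 and 365 CPM in primed tables.

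Most other members were slightly higher in primed than in naive cells. The median log2 ratio was 0.20 for the pore genes and 0.21 for the receptor and Ran cycle genes, against -0.09 over all genes, and 33 of the 47 had a log2 ratio above 0. Ran itself stood at 913 and 899 CPM in naive and 1158 and 1150 in primed tables, 1.27-fold higher and not called. Kpna2, the importin alpha that is abundant in stem cells, stood at 482 and 475 against 630 and 628, 1.32-fold and also not called. For both genes the naive and primed tables did not overlap.

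From primed to NPC, 39 of the 47 members were lower, while 21.2% of all 11822 genes entered were, and 1 was higher, against 42.4% of all genes. The median log2 ratio was -0.92 over the members and 0.37 over all genes. All 19 pore genes had a log2 ratio under 0, and 18 of them were called lower.

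Among the pore genes, Nup43, Nup37, Nup160, Nup107, Nup133 and Nup85 encode subunits of the Y complex, which forms the outer rings. All 6 were called lower. Nup43 went from 106 and 101 CPM in primed to 30.6 and 31.4 in NPC tables, a ratio of 0.299. Nup37 went from 86.1 and 85.7 to 29.5 and 30.1, and Nup160, a large scaffold subunit, from 285 and 287 to 98.4 and 99.4. Nup107, Nup133 and Nup85 were at 0.426, 0.455 and 0.430 of their primed levels. Of the subunits outside the rule, Seh1l went from 267 and 264 to 166 and 168 CPM and was called, and Sec13 went from 108 and 111 to 79.4 and 86.7 and was not.

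The inner ring showed a wider range. Nup35, which contacts the membrane, went from 82.7 and 80.7 to 28.1 and 30.3 CPM, and Nup93, which anchors the central channel, from 234 and 230 to 80.4 and 94.0. Nup205, Nup188 and Nup155 were at 0.458, 0.555 and 0.617 of primed. The channel proteins Nup62 and Nup54 were at 0.543 and 0.507, and Nup98, a repeat protein on both faces, at 0.621. On the cytoplasmic face Nup214 and Nup88 were at 0.584 and 0.614. The nuclear basket differed within itself, since Nup153 was at 0.454 and called, while Nup50 went only from 271 and 272 to 213 and 218 CPM. With a ratio of 0.792, Nup50 was the only one of the 19 genes with a Nup symbol that was not called. Nup210, already reduced at the primed stage, went further to 52.0 and 55.1 CPM.

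Of the 28 receptor and Ran cycle genes, 21 were lower and 1 higher. The Ran cycle was lower almost throughout. Rcc1, the exchange factor that loads Ran with GTP, went from 285 and 279 CPM to 70.1 and 76.6, a ratio of 0.260 and the lowest of all members. Its exons overlap those of Snhg3 and Gm17300 in the annotation used here, 1 of them on the opposite strand. How the counting treated reads of such overlaps is not given in the sources used here. Ran went from 1158 and 1150 to 474 and 503, Rangap1 from 449 and 459 to 181 and 202, and Ranbp1 from 419 and 428 to 177 and 188. Nutf2, which brings Ran back into the nucleus, went from 213 and 212 to 114 and 122. Ranbp2, a large protein of the cytoplasmic filaments, was at 0.729 and was not called.

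Among the import receptors Ipo5 went from 1260 and 1247 CPM to 458 and 470, and Kpnb1 from 1705 and 1749 to 749 and 766. Kpna2 had a ratio of 0.351, lower than those of Kpna3 (0.537), Kpna6 (0.530) and Kpna1 (0.598), which were called as well, while Kpna4 (0.884) was not. Ipo7, Ipo11 and Ipo4 were at 0.484, 0.637 and 0.644 of primed, and Tnpo3 at 0.497, and these 4 and Ipo8 were called. Tnpo1 (0.828) and Tnpo2 (0.810) were not called. Ipo9, which carries histones H2A and H2B, was the exception in direction, with 253 and 263 CPM in primed and 398 and 395 in NPC tables, 1.54-fold higher. This call was lost when the tables were scaled by median ratios or by a sum without the highest 1% of genes. Ipo13 was at 1.09 of primed.

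The export receptors were lower to different degrees. Xpo4 went from 269 and 268 CPM to 81.0 and 79.0, a ratio of 0.298, and Xpot, the exporter of tRNA, from 482 and 477 to 193 and 195. Exons of Xpo4 overlap those of Lats2 on the same strand in the annotation used here. Xpo1, the main exporter of proteins, was at 0.576, Xpo5, the exporter of pre-miRNA, at 0.581 and Xpo7 at 0.629 of the primed level, all 3 called. Xpo6, the exporter of actin, was at 0.769 and was not called.

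**Figure D2:**
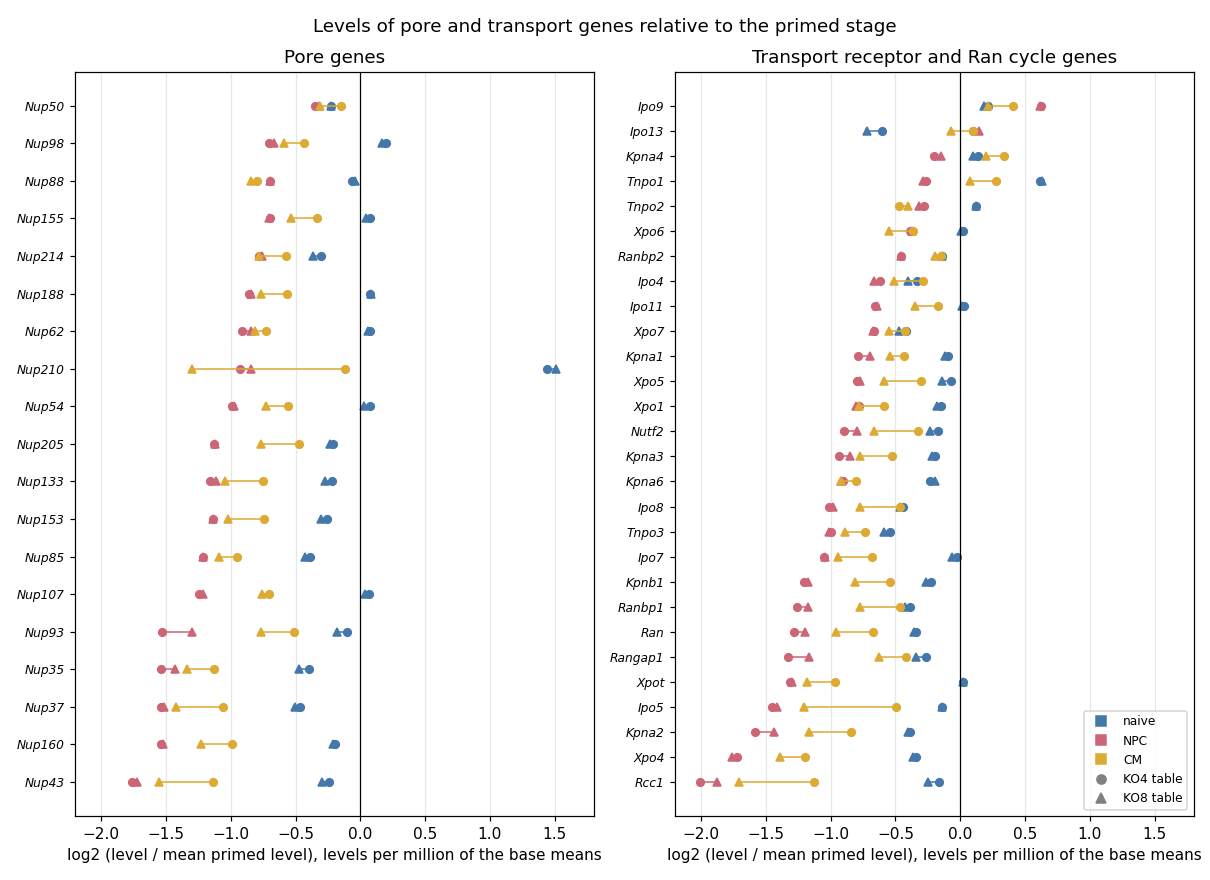
Log2 level of each pore gene (left) and each receptor or Ran cycle gene (right) relative to its mean primed level, for the naive, NPC and CM stages; circles are KO4 tables and triangles KO8 tables, joined by a line. NPC values lie left of 0 for all 19 pore genes, Ipo9 and Ipo13 lie right of 0, and Nup210 is the one member far to the right at the naive stage.

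From primed to CM, 18 of 47 members were called lower, while 18.1% of all 11659 genes entered were, and 0 higher, against 35.3% of all genes. The called genes were 10 pore genes and 8 receptor and Ran cycle genes, and the median log2 ratio was -0.65 over the members and 0.22 over all genes. Rcc1 had 285 and 279 CPM in primed and 129 and 86.2 in CM tables, the lowest ratio at 0.381. Nup43 followed at 0.399, with 47.2 and 35.4 CPM at the CM stage, then Xpo4 at 0.408, Nup37 at 0.426 and Nup35 at 0.427. Nup160 (0.464), Nup85 (0.494), Nup133 (0.538), Nup153 (0.545), Nup88 (0.568), Nup62 (0.587) and Nup107 (0.604) were the other pore genes called. On the receptor side Xpot (0.477), Kpna2 (0.501), Kpna6 (0.549), Ran (0.571), Tnpo3 (0.571) and Ipo7 (0.573) were called besides Rcc1 and Xpo4.

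The count depended on which clone was in the table and, to a lesser degree, on how the tables were scaled. With the KO8 tables alone 34 members were called lower, where 62.2% of all genes were called in either direction, and with the KO4 tables alone 19, where 58.0% were, against 53.4% with both. Ipo5 is an example, since it stood at 889 CPM in the KO4 table and 545 in the KO8 table of the CM stage, and Nup210 is another, with 91.2 and 40.2. Between the CM and NPC stages 0 of 47 members were called, where 10.3% of all 11887 genes entered were higher in CM and 16.3% lower. The members' ratios ran from 0.809 for Ipo9 to 1.71 for Nup93, with 42 of 47 above 1, and with the KO4 tables alone 11 members were higher in CM, where 38.4% of all genes were called in either direction.

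Genes of dividing cells were also lower at the later stages. Of 8 such genes, among them Top2a and Ccnb1, 7 were called lower from primed to NPC, where 21.2% of all genes were. From primed to CM 3 were called lower, where 18.1% of all genes were. Their summed level was 2773 and 2796 CPM in primed, 1530 and 1616 in NPC and 1979 and 1811 in CM tables. Mki67 was the exception, with 217 and 243 CPM in primed and 313 and 324 in NPC tables. The part of cell division in the levels of the pore and transport genes was not tested.

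Other genes of the pathway, which the rule did not take, were counted in the same way. Of 11 pore and basket genes with other names, 5 were lower from primed to NPC (Seh1l, Ndc1, Aaas, Rae1 and Ahctf1) and 0 higher, with a median log2 ratio of -0.64. Pom121, a membrane anchor of the pore, was called higher from naive to primed, with 120 and 129 against 211 and 215 CPM, while Nup210, another membrane protein, was called lower at that step. Of 10 other transport factors, 3 were lower from primed to NPC (Cse1l, Ddx19b and Alyref), and 0 higher. Cse1l, the exporter that returns importin alpha to the cytoplasm, went from 586 and 582 to 246 and 261 CPM, while Nxf1, the main mRNA export receptor, stood at 206 and 201 in primed and 267 and 257 in NPC tables. From primed to CM, 3 of the 11 (Rae1, Nupl2 and Ahctf1) and 1 of the 10 (Cse1l) were lower, and Ranbp9 was higher. Over all genes entered, 21.2% were lower and 42.4% higher from primed to NPC, and 18.1% lower and 35.3% higher from primed to CM.

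The clones could be set against each other without the WT libraries. Both tables of a stage hold the same WT libraries, so 2 times the difference of the 2 base means, once they are on the same scale, is the KO8 mean minus the KO4 mean. It is given here as a percent of the mean of the 2 base means, and a gene was called at 20% or more. A gene entered when that mean was at least 100. For the members the counting error of this difference was 0.504 to 6.39 percentage points (SD). The spread between libraries, counting error included, was taken from genes whose reads could be recovered, which have base means under 1000. It came to an SD of 6.57 percentage points in primed, 8.78 in NPC and 7.10 in CM comparisons, and it is unknown for naive cells. Most members have higher base means and less counting error than those genes, so their own total spread is not known.

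In naive cells 0 of 47 members were called between the clones, where 7.80% of all 10857 genes entered were higher in KO8 and 3.21% lower. The members ran from -17.4% for Ipo13 to 8.32% for Nup210, and 41 were lower in KO8, with a median of -5.31% against -0.42% over all genes. In primed cells the one member called was Nup210, higher in KO8 by 22.4%, with base means of 1612 in the KO4 table and 1803 in the KO8 table on the same scale, where 4.19% of all 9867 genes entered were higher and 2.64% lower. The median of the members was -0.988%. In NPC cultures Nup93 was higher in KO8 by 29.7% and Rangap1 by 20.5%, 2 of 47 members, where 9.76% of all 11224 genes entered were higher and 7.72% lower, with base means of 1354 and 1570 for Nup93 and 3040 and 3368 for Rangap1. These 3 calls were lost at a limit of 30%, and Rangap1 was just inside the limit used.

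At the CM stage 36 of 47 members were lower in KO8 than in KO4, while 26.4% of all 11136 genes entered were lower and 28.6% higher. They were 14 of 19 pore genes and 22 of 28 receptor and Ran cycle genes, and the median was -27.3% over the members against 0.485% over all genes. Nup210 (chr6:90963062-91066823, minus strand, mm9) stood apart, with base means of 1640 in the KO4 and 728.5 in the KO8 table on the same scale, a difference of -154%. Ipo5 followed with 15981 and 9859, a difference of -94.8%, and Rcc1 with 2313 and 1561, a difference of -77.6%. The next were Nup43 at -55.8%, Nup37 at -47.5%, Nutf2 at -44.4%, Kpna2 at -43.6%, Ranbp1 at -41.9% and Ipo8 at -40.5%. Ran stood at -37.8% and Kpnb1 at -36.7%.

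The members not called at the CM stage were Nup88 (-5.40%), Nup107 (-5.84%), Nup62 (-10.1%), Nup85 (-18.3%) and Nup98 (-19.3%) among the pore genes, and Ranbp2 (-4.93%), Kpna6 (-13.6%), Kpna1 (-13.7%), Xpo7 (-16.3%), Kpna4 (-18.2%) and Tnpo2 (10.8%) among the others. Tnpo2, a relative of Tnpo1, was the single member above 0. Just inside the limit were Tnpo3 at -20.3% and Nup50 at -21.3%. With base means as deposited, their scales not matched, 29 members were lower, and Ipo11, Ipo13, Ipo9, Nup50, Nup54, Tnpo3 and Xpo6 were no longer called.

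Other genes also separated the clones at this stage. The 6 cardiomyocyte markers were all higher in KO8, by 67.3% to 143%, the 6 neural markers were all lower in KO8, and 5 of 6 naive markers were lower. All 5 genes of other embryoid body cells were higher in KO8. Of the 8 genes of dividing cells, 3 were lower in KO8 (Ccnb1, Plk1 and Ccna2), with a median of -15.1%. The part of the makeup of the cultures in the difference of the pore and transport genes was not tested. Of the other pore genes 4 of 11 (Tpr, Ndc1, Pom121 and Rae1), and of the other transport factors 5 of 10 (Cse1l, Ranbp3, Nxt1, Thoc1 and Alyref), were lower in KO8 at the CM stage. Ranbp9 was higher. Over all genes entered, 26.4% were lower and 28.6% higher in KO8.

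**Figure D3:**
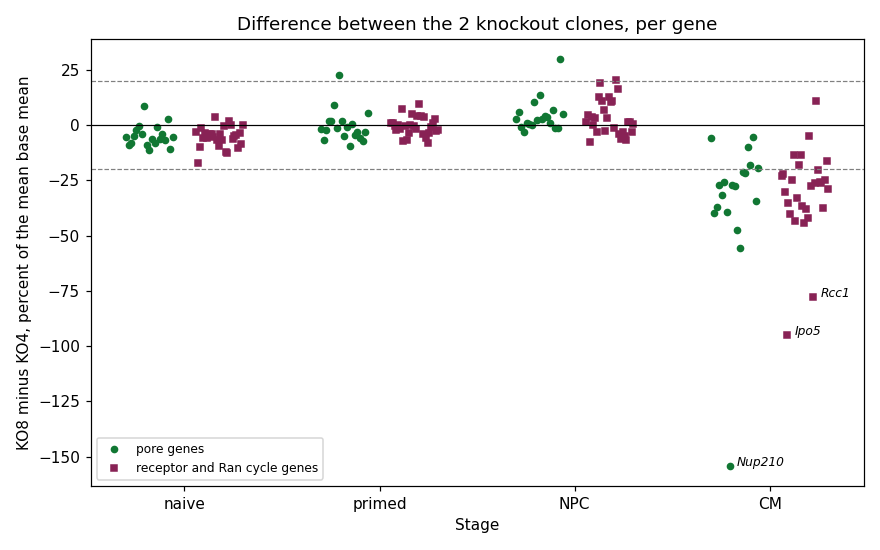
KO8 minus KO4 as a percent of the mean base mean, for each of the 47 members at each stage; circles are pore genes, squares receptor and Ran cycle genes, and dashed lines mark the limits of 20% and -20%. Values lie between -17.4% and 29.7% at the first 3 stages and mostly under -20% at the CM stage, with Nup210 at -154%, Ipo5 at -94.8% and Rcc1 at -77.6%.

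Knockout cells could be compared with WT cells only for members with low counts. A base mean is a weighted sum of whole reads, and where it is under 1000 in both tables of a stage its digits usually allow a single set of reads per library. Such a set was found for 98.7% of the genes with a mean of at least 50 in primed cells, 99.4% in NPC and 96.9% in CM cultures. This gave 4 members in NPC cultures, 3 of them in CM cultures too, and 0 in primed cells, all of them pore genes, and recovery was not tried for naive cells, which have more libraries per table. The other members with substantial levels, all receptors and Ran cycle genes among them, have no comparison with WT here.

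At the CM stage the 3 pore genes were higher in KO4 than in WT, while in KO8 they did not pass the test. Nup43 had 603 and 646 normalized reads in the WT libraries, 1067 and 1079 in KO4 and 680 and 635 in KO8. Both KO4 libraries lay above all 4 others. The log2 change was 0.78 ± 0.08 (SE) in KO4, with an adjusted p of 6.9e-06, and 0.07 ± 0.08 in KO8, with an adjusted p of 0.56 (limma on log2 values with Benjamini-Hochberg adjustment over 6862 genes, 2 libraries per group).

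Nup37, another small subunit of the Y complex, had 537 and 573 normalized reads in WT, 977 and 868 in KO4 and 619 and 598 in KO8. The groups did not overlap, and the step from KO8 to KO4 was larger than that from WT to KO8. In limma the log2 change was 0.73 ± 0.09 (SE) in KO4 with an adjusted p of 3.0e-05, and 0.13 ± 0.09 in KO8 with an adjusted p of 0.33.

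Nup35 of the inner ring had 548 and 574 normalized reads in WT, 727 and 843 in KO4 and 590 and 631 in KO8. Its KO4 libraries were again the highest, though they differed more from each other. In limma the log2 change was 0.48 ± 0.10 (SE) in KO4 with an adjusted p of 0.0013, and 0.12 ± 0.10 in KO8 with an adjusted p of 0.42. Over all genes tested 26.3% were higher and 30.9% lower in KO4 than in WT at this stage, and 12.7% were higher and 14.2% lower in KO8, so a call in KO4 was common. Exons of Nup35 overlap those of Dusp19 on the same strand in the annotation used here. Whether the counting used the strand is not given in the sources used here, but the strand would not separate reads of this pair.

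The clones themselves differed for these 3 genes. KO8 minus KO4 was -0.71 ± 0.08 (SE, log2) for Nup43, -0.60 ± 0.09 for Nup37 and -0.36 ± 0.10 for Nup35, with adjusted p of 1.6e-05, 1.6e-04 and 0.0086 in limma, where 25.0% of all genes tested were lower in KO8 and 29.2% higher. The call for Nup35 was lost without one of the KO4 libraries (adjusted p of 0.11) and without one of the KO8 libraries (adjusted p of 0.076).

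In NPC cultures 0 of 4 members passed the limma test in either clone, and none had an unadjusted p under 0.05. Nup210 had 781 and 899 normalized reads in WT, 909 and 911 in KO4 and 871 and 1131 in KO8, so the groups overlapped. Its log2 change was 0.12 ± 0.13 (SE) in KO4 and 0.24 ± 0.13 in KO8, with adjusted p of 0.67 and 0.26 in limma. Without the lower KO8 library it was 0.43 with an adjusted p of 0.0038 in limma, so this value rested on the other library alone. Nup35 had 515 and 469 reads in WT, 454 and 455 in KO4 and 483 and 555 in KO8. Nup37 had 502 and 468, 539 and 479, and 518 and 526. Nup43 had 559 and 472, 491 and 537, and 498 and 573. Both KO4 libraries of Nup35 lay under the others, KO4 overlapped both other groups for Nup37, and all groups overlapped for Nup43. The changes of these 3 ran from -0.11 to 0.11 on the log2 scale with SEs of 0.11 to 0.13, and their adjusted p from 0.59 to 1.0 in limma, where 5.32% of all 7418 genes were higher and 3.49% lower in KO4 and 8.07% higher and 4.89% lower in KO8. Between the clones 0 of 4 members passed, where 0.890% of all genes tested were higher and 0.634% lower in KO8. Without the lower KO8 library the log2 difference of Nup210 between the clones went from 0.13 to 0.31 and passed, with an adjusted p of 0.045 in limma.

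**Figure D4:**
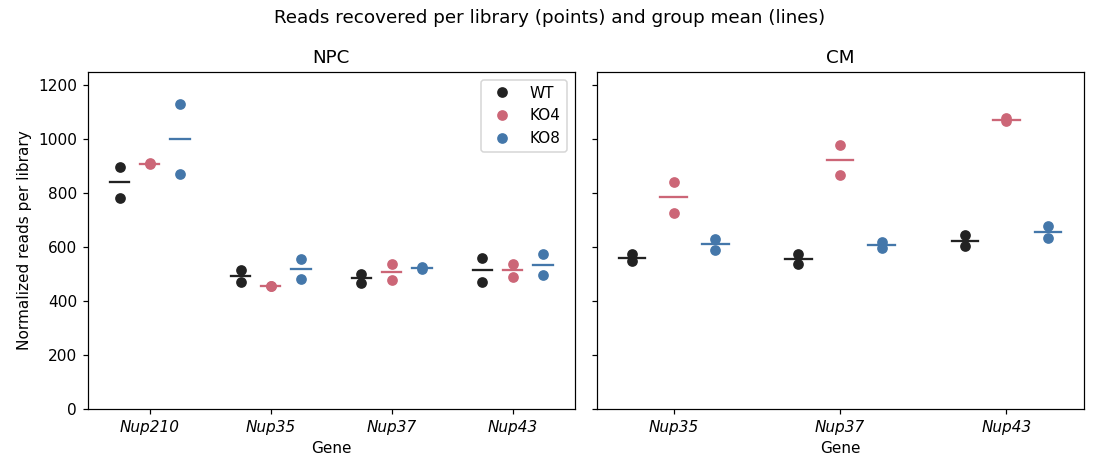
Normalized reads per library recovered from the base means, for the members that could be recovered at the NPC (left) and CM (right) stage; points are libraries and short lines group means, with 2 libraries each for WT, KO4 and KO8. The KO4 points lie above all others for the 3 genes at the CM stage, while the groups lie within 454 to 573 for the same genes in NPC.

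Nup210 at the CM stage had a base mean under 1000 in the KO8 table only, and 5 sets of reads gave its 2 values. In all 5 sets the KO4 mean was above the WT mean, by 3.35-fold to 5.10-fold, whereas KO8 ran from 0.935 to 1.71 of WT. That KO4 was above WT follows from the base means alone and not from the sets. The WT mean is at most 2 times the 728.5 of the KO8 table, which is under the 1640 of the KO4 table. The fold ranges hold only for sets within the replicate allowance, a CV of 10% beyond counting and 6 SD. The lowest KO4 library in any set had 1539 normalized reads and the highest WT library 1033. This bound was computed after the values had been seen and carries no test, and the difference between the clones given above does not depend on which set is right.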

How the data were processed

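mRNA of V6.5 cells was sequenced from total RNA, and the authors trimmed reads with Trim Galore 0.6.7, aligned them to mm9 with HISAT2 2.2, counted them with featureCounts and normalized them with DESeq2 1.46.0, per the labels. The deposited base mean is a normalized signal, the mean of normalized counts over WT and 1 clone at 1 stage. The deposited tables also hold the authors' log2 fold changes with errors, test statistics and p-values, which were not used. Depth, estimated from size factors, was about 15.1 to 39.7 M reads.

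Stage levels were base means scaled to the sum of a table (CPM). The value of 1 read in each library was read from the commonest low base means, and libraries giving 1-read genes in both tables of a stage were taken as WT. Whole reads were then solved for genes with base means of 1 to 1000 in both tables, allowing replicates a CV of 10% beyond counting and 6 SD, and kept where 1 solution existed. They were divided by size factors, where log2 CPM had been planned, and tested as log2 (normalized reads + 0.5) with limma 3.58.1 (R 4.3.3, trend), with means of at least 50 and an adjusted p under 0.05. On simulated NPC reads 798 of 800 genes gave 1 solution and all 798 were right. These genes were drawn from lower base means than those of Nup210 in NPC tables (875.1 and 956.5). They were also lower than those of Nup37 and Nup43 in the KO4 table of the CM stage (738.7 and 848.9). Reads of the primed and CM stages were not simulated, so the simulation does not show how often recovery is right there. It made and solved reads with the same size factors and with replicates inside the allowance, so errors in either were not tested. No simulated gene was left without a solution, while 145 of 12155 genes tried in NPC and 422 of 11591 in CM cultures were. The limit of 1000 and the replicate allowance were set after values had been seen, and weighting several solutions was tried for members above the limit and dropped, since it favours small errors and small changes.

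Exon lengths are from GENCODE vM1 (NCBIM37, the assembly of mm9). Exons of 13 of the 47 members with 1 position overlap another gene. The rule for named genes took each member called between stages or clones, the 5 highest per length and those failing the minimum. Motifs were chosen after values had been seen, the NRF1 core in place of a longer form. Members outside that rule are named after their values were seen. The members and lists were chosen with earlier results of these data known.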

Additional observations from a re-analysis of the deposited data

Results flagged for a closer look

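The change against WT at the CM stage differed between the clones for 3 pore genes, in a test of KO8 against KO4 (limma, 2 libraries per group). KO8 minus KO4 was -0.71 on the log2 scale for Nup43, -0.60 for Nup37 and -0.36 for Nup35, and both KO8 libraries were under both KO4 libraries for each gene.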

How the results depend on the processing

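No paired analysis was possible because base means pool the libraries and the recovered reads carry no replicate number. No alternative turned the direction of a called member. Shares of all genes called in either direction are in parentheses. With a fold limit below 1.5 (the lower fold), 14 members were called from naive to primed (48.0%), and 1 at 2-fold (15.0%). From primed to NPC, 20 were called at 2-fold (46.1%). From primed to CM, 36 were called with the lower fold (70%), 5 at 2-fold (35.4%) and 34 with the KO8 tables alone (62.2%). Median ratio scaling called 23 at this step (53.6%) and a sum without the highest 1% of genes 24 (53.6%), against 18 in the main setting (53.4%). From NPC to CM, 2 were called with median ratio scaling (25.5%), 11 with the KO4 tables alone (38.4%), 9 with the lower fold (43.9%) and 1, Kpna7, without a minimum base mean (35.8%). Median ratio scaling moved the median log2 ratio of all genes from primed to NPC from 0.37 to 0.22 and that of the members from -0.92 to -1.07. Between clones, a limit of 10% called 7 members in naive (33.3%) and 11 in NPC cells (43.0%), and a limit of 30% called 0 in primed (2.02%), 0 in NPC (9.08%) and 20 in CM cells (39.1%). Base means as deposited, without matching their scales, called 0 in primed (7.36%), 6 in NPC (21.3%) and 29 in CM cells (55.0%). Without a minimum base mean Kpna7 alone was added in naive cells, which made 1 (35.2%). In limma on recovered reads the count of genes called without 1 library ran, for KO4 against WT, from 1026 to 1642 in primed (1617 with all libraries), 3 to 1501 in NPC (654) and 3245 to 3832 in CM cells (3927). For KO8 against WT it ran from 726 to 1369 (1226), 83 to 1858 (962) and 970 to 1759 (1846). For KO8 against KO4 it ran from 127 to 270 (251), 5 to 1268 (113) and 2861 to 3974 (3719), and was 156 in primed cells with no filter. The NPC counts thus depended on single libraries, the lowest being without WT library b for KO4, without WT library a for KO8 and without KO4 library a between clones. A fit left with 1 library in a group assumes that it varies like the others.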
